A study of Mus musculus with 12 samples.

Results

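The IL-6 family and IL-33 cytokine axis was followed as 9 genes of 20021 that received a symbol on the array: the ligands Il6, Il11, Lif, Clcf1 and Il33, the receptor chains Il6st, Osmr and Il1rl1, and the feedback inhibitor Socs3. They were chosen by name, with earlier results of these data known, as related signals of cardiac inflammation and fibrosis. Every probe that maps to them was read, which gave 11 of 39429 probes. The hearts came from C57/Bl6 mice, and RNA from part of the left ventricle was measured on 12 Agilent single-colour arrays, 3 in each of 4 groups, all taken 21 days after surgery. The groups were CnAb1 transgenic hearts after transverse aortic constriction (TAC, a band on the aorta that loads the left ventricle with pressure), CnAb1 transgenic hearts after sham surgery, wild-type hearts after TAC and wild-type hearts after sham surgery. CnAb1 arises from calcineurin A beta by alternative splicing, and the series asks whether it lessens the hypertrophy that pressure overload brings about. The labels do not name the promoter that drives the transgene or the number of lines, and they do not say whether the 3 arrays of a group came from 3 animals, so p-values measure the spread between these arrays, which may be technical.

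Cytokines of the IL-6 family bind a receptor chain of their own and signal through the shared chain gp130, encoded by Il6st, which activates JAK kinases and the transcription factor STAT3. STAT3 in turn induces Socs3, whose product blocks gp130 signalling. IL-33 is a nuclear cytokine of the IL-1 family that damaged or stretched cells release. Its receptor ST2, encoded by Il1rl1, exists as a membrane form that signals through MyD88 and as a soluble decoy. In the heart, fibroblasts are a known source of IL-33 and IL-11, and oncostatin M acts on cardiomyocytes through the receptor chain encoded by Osmr.

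Promoter sequence was at hand for 8 of the 9 genes (RefSeq, mouse build GRCm38.p6), as 11 windows of 250 bases that end at the base before the gene's start. Those of the 3 genes that rose after banding, Il6, Il33 and Osmr, and that of Socs3, the STAT3 target, are printed 5′ to 3′ on the gene's strand, with matches in capitals. The motifs searched on both strands were TTCNNNGAA for the STAT family, TGACTCA for AP-1 and GGGANTTTC for NF-kB, where N is any base and TGAGTCA is the AP-1 motif read on the other strand; no match overlapped another. Of 32817 such windows in the same set, 7.01% held the STAT motif, 4.46% the AP-1 motif and 0.942% the NF-kB motif. The windows are chr5:30012864-30013113 on the plus strand for Il6, chr19:29924863-29925112 and chr19:29945540-29945789 on the plus strand for the 2 starts of Il33, chr15:6874314-6874563 on the minus strand for Osmr and chr11:117969367-117969616 on the minus strand for Socs3.
Il6: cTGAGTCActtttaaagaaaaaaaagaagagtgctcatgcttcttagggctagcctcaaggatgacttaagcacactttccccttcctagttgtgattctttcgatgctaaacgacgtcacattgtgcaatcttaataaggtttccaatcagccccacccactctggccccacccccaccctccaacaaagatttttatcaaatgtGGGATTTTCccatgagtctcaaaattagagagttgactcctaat
Il33, window 1: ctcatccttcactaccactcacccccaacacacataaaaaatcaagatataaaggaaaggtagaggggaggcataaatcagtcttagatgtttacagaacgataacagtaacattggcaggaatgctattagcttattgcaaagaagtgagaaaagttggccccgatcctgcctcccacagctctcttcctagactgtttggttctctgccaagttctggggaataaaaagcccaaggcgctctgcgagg
Il33, window 2: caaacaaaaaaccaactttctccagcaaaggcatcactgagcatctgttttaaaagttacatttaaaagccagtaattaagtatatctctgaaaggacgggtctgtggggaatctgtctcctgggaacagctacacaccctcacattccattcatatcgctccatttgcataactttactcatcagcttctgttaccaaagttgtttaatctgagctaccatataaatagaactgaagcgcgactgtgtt
Osmr: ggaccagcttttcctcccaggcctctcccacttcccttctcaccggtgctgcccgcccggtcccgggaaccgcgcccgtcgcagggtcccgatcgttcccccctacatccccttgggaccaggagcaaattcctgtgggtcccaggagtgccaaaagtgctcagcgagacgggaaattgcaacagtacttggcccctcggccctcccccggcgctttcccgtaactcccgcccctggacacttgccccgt
Socs3: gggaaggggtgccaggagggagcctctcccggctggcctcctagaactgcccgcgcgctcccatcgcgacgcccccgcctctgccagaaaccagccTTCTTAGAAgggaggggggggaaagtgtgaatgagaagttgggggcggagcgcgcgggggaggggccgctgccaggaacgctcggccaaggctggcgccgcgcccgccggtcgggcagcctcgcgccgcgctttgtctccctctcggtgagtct
The Il6 window held an AP-1 match, TGAGTCA, that begins 249 bases before the start, and an NF-kB match, GGGATTTTC, that begins 44 bases before it. The Socs3 window held the only STAT match among the 11 windows, TTCTTAGAA, beginning 154 bases before the start. AP-1 matches also lay in the Lif window (TGACTCA, 228 bases before the start) and in 1 of the 2 Il11 windows (TGAGTCA, 98 bases before the start). The windows of Il33, Osmr, Il6st and Il1rl1 held none of the 3 motifs.

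Levels are given as scaled signal, the processed signal of a probe as a per cent of the 75th percentile of its own array, so a probe can be set against itself across arrays but not against another probe. Each array held 43020 spots outside the controls. A probe counted as well above background where the scanner software marked it so. The array of transgenic sham replicate 2 stood apart: 37.2% of its probes were well above background, against 60.3 to 78.2% on the other 11, and its negative controls read 48.6 intensity units, against 15.4 to 21.0. Array brightness also differed by group. The log2 75th percentile before scaling was 9.88 to 9.95 on wild-type TAC arrays, 8.98 to 9.24 on wild-type sham arrays and 9.48 to 9.85 on transgenic arrays. Its part in the values of dim probes was not tested. The 8 cardiomyocyte markers of the tissue check, Myh6, Tnnt2, Tnni3, Actc1, Ryr2, Pln, Myl2 and Myl3, were well above background on all 12 arrays. The 1 probe of Ppp3cb, the gene of calcineurin A beta, differed by 0.15 ± 0.09 between transgenic and wild-type hearts after TAC and by -0.27 ± 0.09 after sham (log2 difference ± standard error, limma adjusted p = 0.397 and 0.183), and whether it reads the transgenic variant is not stated in the files. The arrays sat on 5 slides and were scanned on 1 day. The number of arrays and the signal over background limit the precision.

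**Figure D1:**
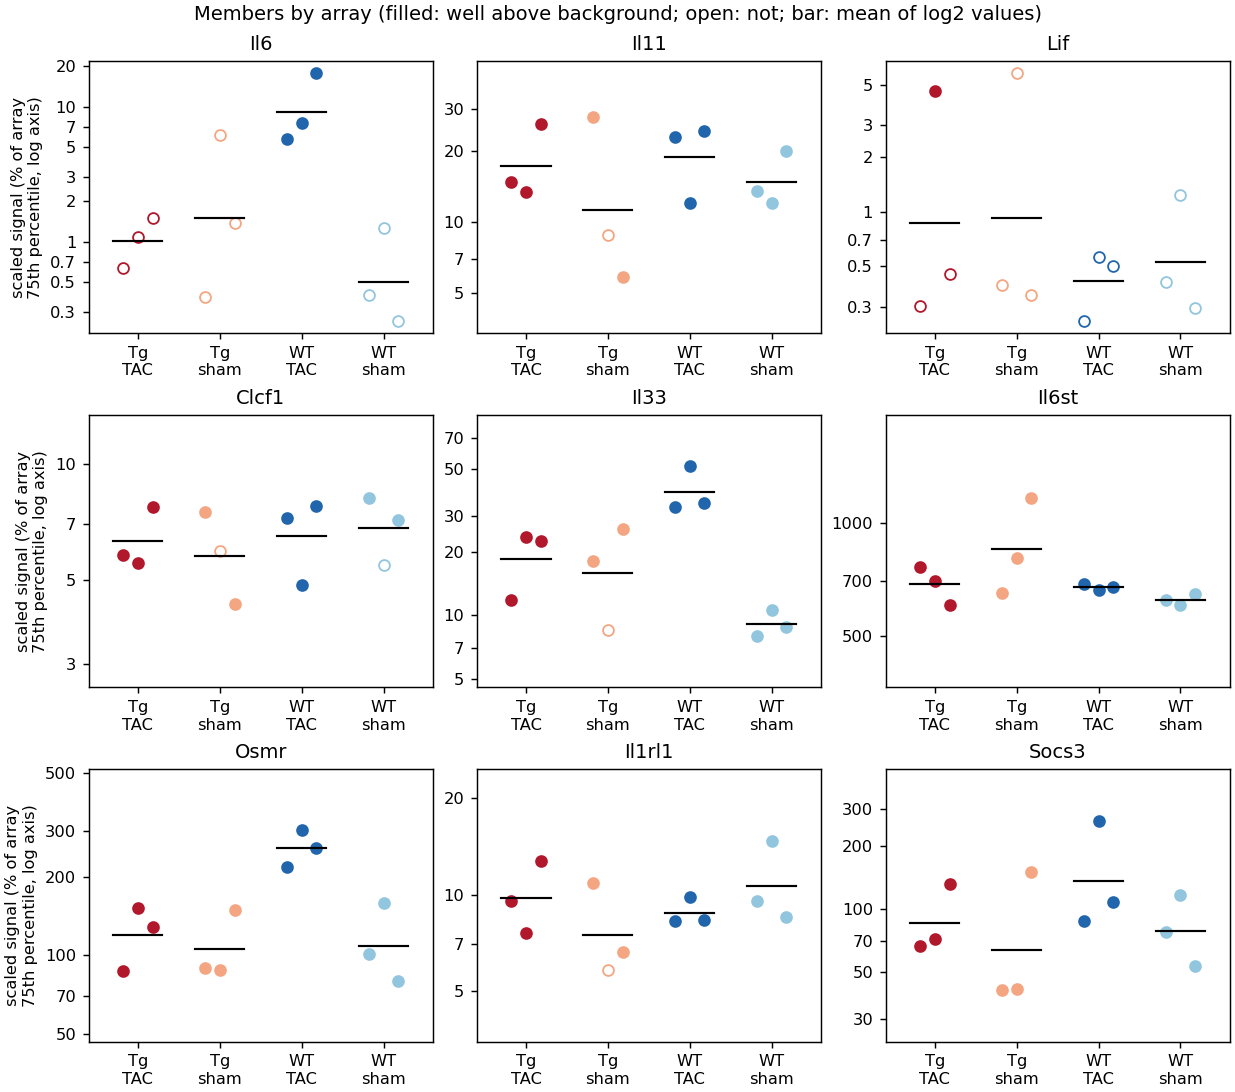
Scaled signal of the brightest probe of each of the 9 genes on the 12 arrays (log axis, per cent of the array's 75th percentile), in CnAb1 transgenic (Tg) and wild-type (WT) hearts after TAC or sham surgery. Each point is 1 array, filled where the probe was well above background, and the bar is the mean of the 3 log2 values; the 3 wild-type TAC arrays are the highest of the 12 for Il33 and Osmr, and for Il6 they are the only filled points, with 1 open transgenic sham point between them.

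Banding of wild-type hearts raised 3 of the axis genes, Il6, Il33 and Osmr, and lowered none. Il33 rose 4.28-fold, Osmr rose 2.37-fold and Il6 rose 3.93-fold against a background floor, all on the processed signal. The ligands Il11 and Clcf1, the receptor chains Il6st and Il1rl1 and the inhibitor Socs3 did not pass the test. Of the 9 genes, 8 passed the filter on dim probes (well above background on 3 or more arrays) and were tested with limma across 25321 genes at a Benjamini-Hochberg adjusted p under 0.05. In this comparison 8.86% of all genes tested were called higher, 12.6% lower and 21.5% in either direction. Il6 passed the filter through the wild-type TAC arrays alone, so it had to differ; without it, 2 of 7 genes were called. The median log2 difference was 0.56 over the 8 genes and 0.35 over the 7 without Il6, against -0.12 over all genes tested. In tissue RNA, more cells of a type and more RNA per cell cannot be told apart.

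Il33, the alarmin ligand of ST2, had a scaled signal of 33.0, 51.5 and 34.5% in wild-type hearts after TAC, against 7.96, 10.6 and 8.85% in wild-type hearts after sham. The groups did not overlap, and the lowest banded array was above 3 times the highest sham one. The log2 difference was 2.10 ± 0.40 (SE, n = 3 arrays a group), with a limma adjusted p of 0.00671. On the slide that held 1 wild-type TAC array and 2 wild-type sham arrays, the log2 difference of Il33 was 2.49. With slide as a fixed block it was 2.00, adjusted p = 0.0843.

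Osmr, the receptor chain that pairs with gp130 for oncostatin M, had a scaled signal of 217, 302 and 259% in wild-type hearts after TAC, against 101, 158 and 80.0% in wild-type hearts after sham. All 3 banded arrays were above all 3 sham arrays. The log2 difference was 1.24 ± 0.31 (limma adjusted p = 0.0198), or 1.13 with normexp background correction (adjusted p = 0.0551). It was 1.26 within the slide that held both groups, and 1.15 with slide as a fixed block (adjusted p = 0.108). The call was lost when any of 4 arrays was left out: wild-type sham replicate 1 (log2 difference 1.19, adjusted p = 0.0679) or 3 (1.02, adjusted p = 0.0744), and wild-type TAC replicate 2 (1.12, adjusted p = 0.0601) or 3 (1.24, adjusted p = 0.0635).

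Il6, the inflammatory ligand that signals through the IL-6 receptor and gp130, was well above background on 3 of 3 wild-type TAC arrays and on 0 of the other 9. Its scaled signal was 5.73, 7.57 and 17.6% in wild-type hearts after TAC, against 0.401, 1.25 and 0.258% in wild-type hearts after sham. The sham values were not well above background, so the rise is given against a floor, as 3.93-fold. This is the banded mean over the mean, per sham array, of the dimmest signal still well above background there or of the probe itself where that is higher. Signals brighter than this floor were not always marked well above background, so 3.93-fold is not a strict lower bound. The fitted log2 difference on the measured values was 4.17 ± 0.94 (limma adjusted p = 0.0132), and 3.42 within the slide that held both groups. Il6 entered the test only through the wild-type TAC arrays, so its direction was fixed by the filter and these values are a description. The call was lost without wild-type sham replicate 3 (3.69, adjusted p = 0.0522), without wild-type TAC replicate 3 (3.70, adjusted p = 0.0571) and with slide as a fixed block (4.67, adjusted p = 0.0886). With normexp background correction of the raw spot medians the difference was 1.47 (adjusted p = 0.196), so the value of 3.93-fold holds for the processed signal only.

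Socs3, the STAT3-induced inhibitor of gp130, was read at 87.8, 263 and 107% in wild-type hearts after TAC, against 78.0, 117 and 53.8% in wild-type hearts after sham. The groups overlapped, and 1 banded array, replicate 2, stood above the other 5. The log2 difference was 0.78 ± 0.58 (limma adjusted p = 0.398), with a 95% interval of -0.52 to 2.08. Il6st, the gp130 chain shared by the whole family, was read at 688, 663 and 674% after TAC, against 625, 605 and 646% after sham in wild-type hearts. Its 3 banded arrays were above its 3 sham arrays, as were those of 17.7% of all genes tested, but the log2 difference was 0.11 ± 0.19 (adjusted p = 0.744, 95% interval -0.31 to 0.53).

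Il1rl1, the ST2 receptor gene, has 3 probes on the array. A_55_P2027737 and A_55_P2027731 are assigned to the same transcript and A_51_P339793 to another. Which of these is the membrane or the soluble form, and whether a probe reads both, is not stated. The probe A_55_P2027737 was well above background on 11 of 12 arrays and was the one tested; A_55_P2027731 and A_51_P339793 were not well above background on any array. The tested probe read 8.28, 9.83 and 8.35% in wild-type hearts after TAC, against 9.58, 14.7 and 8.53% in wild-type hearts after sham. The groups overlapped, with a log2 difference of -0.27 ± 0.29 (limma adjusted p = 0.567, 95% interval -0.91 to 0.37).

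**Figure D2:**
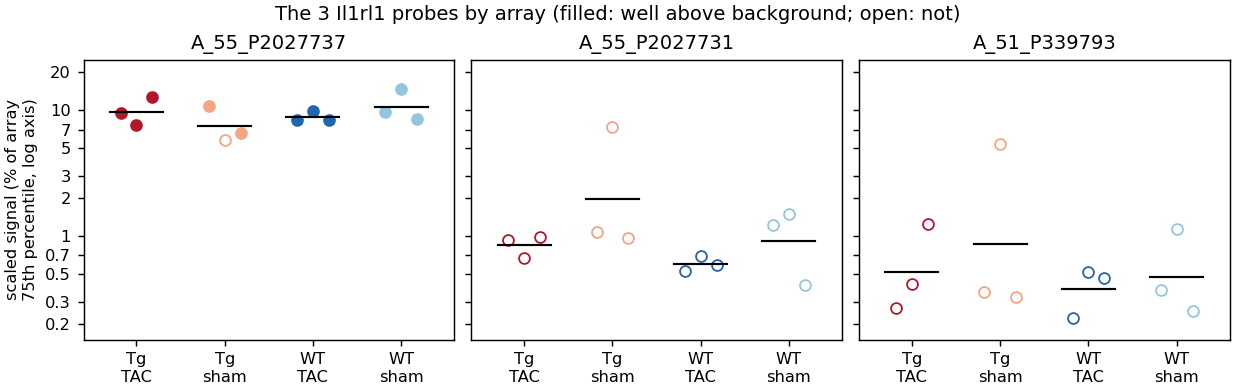
Scaled signal of the 3 Il1rl1 probes on the 12 arrays (log axis), by group. Filled points were well above background: 11 of 12 for the left probe and 0 of 12 for each of the other two, whose highest points are both the transgenic sham replicate 2 array with the raised background.

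The other ligands were dim and showed no call. Il11, a gp130 ligand that fibroblasts make and respond to, ranged over 12.1 to 24.2% after TAC and 12.02 to 20.0% after sham in wild-type hearts (log2 difference 0.35 ± 0.54, limma adjusted p = 0.717). Clcf1, a ligand of the CNTF receptor, ranged over 4.85 to 7.81% after TAC and 5.45 to 8.15% after sham (log2 difference -0.07 ± 0.26, adjusted p = 0.89). Lif, leukaemia inhibitory factor, was well above background on 1 array of the 12, transgenic TAC replicate 2 at 4.65%, and was not tested; its wild-type arrays read 0.25 to 0.562% after TAC and 0.293 to 1.23% after sham, none of them well above background.

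Markers of some cell types moved with banding of wild-type hearts, and those of others did not. Of 11 fibroblast markers, 9 were called higher in wild-type hearts after TAC, as were 8.86% of all genes, with a median log2 difference of 2.08, and their summed scaled signal was 34450 to 50910% in wild-type hearts after TAC, against 9919 to 15790% in wild-type hearts after sham. In transgenic hearts that sum was 16310 to 20060% after TAC and 17140 to 18360% after sham. The fibroblast markers were lower in transgenic than in wild-type banded hearts for 7 of 11, where 1.91% of all genes were called lower, and lower in the interaction for 8 of 11, where 3.07% of all genes were. Macrophage and monocyte markers were higher for 4 of 12 in banded wild-type hearts, with sums of 5025 to 6180%, against 4243 to 4371% after sham. Endothelial markers were higher for 5 of 10 and lower for 1, smooth muscle and pericyte markers were higher for 5 of 9, and cardiomyocyte markers were lower for 7 of 8. Of all genes, 12.6% were called lower in that comparison. Mast cell markers, a cell type that carries ST2, changed for 0 of 7, and the defining genes Ms4a2 and Fcer1a failed the filter. T, NK and innate lymphoid markers were lower for 2 of 9, and Ncr1, Il7r and Klrg1 failed the filter. Neutrophil markers were called for 0 of 8, B cell markers for 0 of 6, adipocyte markers for 0 of 5 and erythroid markers for 0 of 3. Mesothelial and epicardial markers were lower for 1 of 5, and Schwann and nerve markers were higher for 1 of 6 and lower for 1. The part that these cell types have in the axis values was not tested.

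In transgenic hearts, banding changed no gene of the axis past the test, and no other gene passed: 0% of 25321 genes were called by limma, against 6.24% (1579 genes) at an unadjusted p under 0.05. All 8 tested axis genes overlapped between transgenic TAC and transgenic sham arrays, where 8.57% of all genes did not overlap. The count of axis genes called was 0 under every alternative setting that was run. Il33 read 11.8, 23.7 and 22.7% in transgenic hearts after TAC, against 18.2, 8.56 and 25.7% in transgenic hearts after sham, the value of 8.56% being that of transgenic sham replicate 2, where the probe was not well above background. Neither group stood above the other, and the log2 difference was 0.22 ± 0.40 (limma adjusted p = 0.912, 95% interval -0.68 to 1.12). Osmr read 87.4, 153 and 129% in transgenic hearts after TAC, against 89.4, 88.2 and 149% in transgenic hearts after sham, a log2 difference of 0.18 ± 0.31 (adjusted p = 0.907, 95% interval -0.51 to 0.88). Il6 read 0.638, 1.08 and 1.49% after TAC, against 0.389, 6.20 and 1.38% after sham in transgenic hearts, not well above background on any of the 6 arrays, so no fold is given.

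Socs3 read 67.0, 71.5 and 132% after TAC, against 41.1, 41.7 and 149% after sham in transgenic hearts, a log2 difference of 0.44 ± 0.58 (limma adjusted p = 0.883). Il6st read 762, 701 and 606% after TAC, against 652, 807 and 1165% after sham, a log2 difference of -0.31 ± 0.19 (adjusted p = 0.806). The tested Il1rl1 probe read 9.56, 7.57 and 12.8% after TAC, against 10.8, 5.84 and 6.64% after sham, a log2 difference of 0.38 ± 0.29 (adjusted p = 0.817). Il11 ranged over 13.4 to 25.9% after TAC and 5.85 to 27.6% after sham, and Clcf1 over 5.54 to 7.76% after TAC and 4.31 to 7.53% after sham. On the slide with 1 array of each transgenic group, the log2 differences were 0.32 for Il33, 0.53 for Osmr and 1.68 for Socs3.

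**Figure D3:**
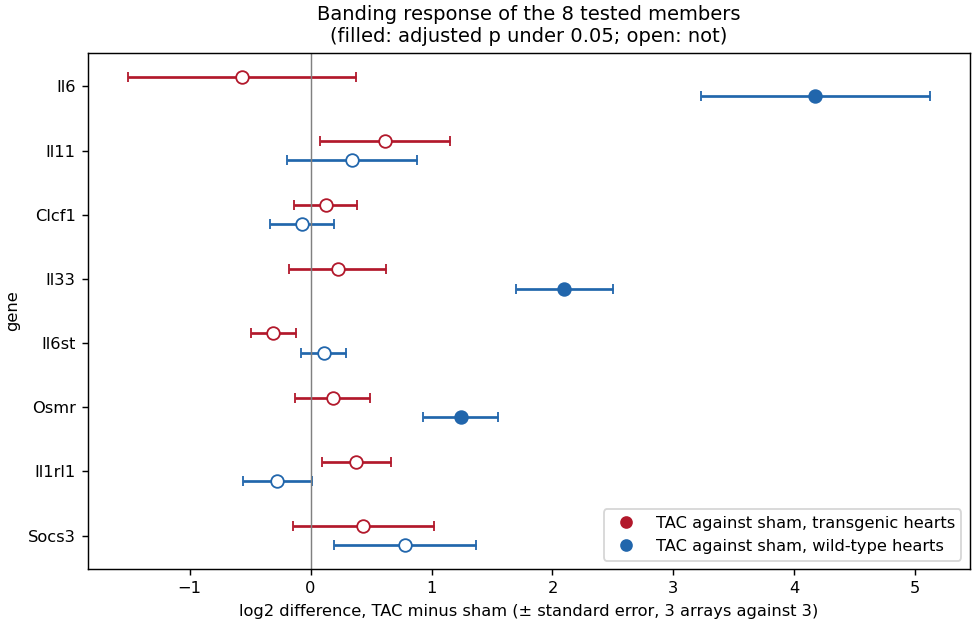
Log2 difference of TAC minus sham for the 8 tested genes in transgenic (red, upper point of each pair) and wild-type hearts (blue, lower point), with the standard error as bars and 3 arrays against 3. The filled points, Il6, Il33 and Osmr in wild-type hearts at 4.17, 2.10 and 1.24, passed the test, which Il6 entered only through the wild-type TAC arrays. None of the transgenic points did.

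After TAC, the transgenic arrays of Il6, Il33 and Osmr lay below all wild-type arrays, yet none of the 3 differences passed over all genes. For these 3 of the 8 tested genes the groups did not overlap, lower in transgenic hearts, where 13.6% of all genes were lower without overlap; without Il6 they were 2 of 7. Il33 differed by -1.07 ± 0.40 on the log2 scale between transgenic and wild-type banded hearts (limma adjusted p = 0.152, 95% interval -1.97 to -0.17). Osmr differed by -1.10 ± 0.31 (adjusted p = 0.0747, 95% interval -1.80 to -0.41). Il6 was 6.24-fold lower in transgenic hearts on the processed signal, against the same kind of floor and so not as a strict bound. It was well above background on 0 of 3 transgenic and 3 of 3 wild-type arrays (limma adjusted p = 0.0852). Of all genes tested, 4.15% were called here and none of the axis genes was. Il6 was in the test only through the wild-type TAC arrays, so its lower value here was fixed by the filter. Its adjusted p became 0.0436 without transgenic sham replicate 2, the array with the raised background, and those of the others stayed above the threshold. Under the settings other than leaving out an array, the log2 difference of Il6 lay between -3.20 and -0.99. Over all alternatives its limma adjusted p was 0.0338 to 0.734. On the slide with 1 transgenic and 2 wild-type banded arrays, the log2 differences were -0.57 for Il33, -0.88 for Osmr and -2.75 for Il6. The other tested genes overlapped: the log2 difference was -0.66 for Socs3, 0.03 for Il6st, 0.15 for Il1rl1, -0.13 for Il11 and -0.05 for Clcf1.

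The difference between the banding responses themselves, the transgenic response minus the wild-type one, was tested as the interaction and was called for 7.29% of all genes and for 0 of the 8 axis genes. Il33 came to -1.87 ± 0.57 on the log2 scale (limma adjusted p = 0.0750, 95% interval -3.15 to -0.60), and to -2.32 (adjusted p = 0.0396) without transgenic sham replicate 2. Il6 came to -4.74 ± 1.33 on measured values that were not well above background in 3 of the 4 groups (adjusted p = 0.0604), and to -5.71 (adjusted p = 0.0280) without transgenic sham replicate 1, with the same dependence on the filter. Under the settings other than leaving out an array, the Il6 value lay between -4.82 and -1.49. Over all alternatives its limma adjusted p was 0.0280 to 0.599. Osmr came to -1.06 ± 0.44 (adjusted p = 0.166, 95% interval -2.04 to -0.08). The other 5 lay between -0.42 for Il6st and 0.65 for Il1rl1, with adjusted p from 0.349 to 0.862.

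After sham surgery, none of the 8 tested axis genes passed between transgenic and wild-type hearts, where 1.4% of all genes were called. Il33 read 18.2, 8.56 and 25.7% in transgenic sham hearts, against 7.96, 10.6 and 8.85% in wild-type sham hearts. The 2 transgenic arrays on which it was well above background were higher than every wild-type one, and the log2 difference was 0.81 ± 0.40 (limma adjusted p = 0.343), or 1.25 (adjusted p = 0.161) without transgenic sham replicate 2. Il6st was the 1 gene of the 8 whose groups did not overlap, at 652, 807 and 1165% in transgenic sham hearts, against 625, 605 and 646% in wild-type sham hearts; 8.48% of all genes were higher without overlap. Its log2 difference was 0.44 ± 0.19 (adjusted p = 0.263). The remaining log2 differences were -0.04 for Osmr, -0.31 for Socs3, -0.50 for Il1rl1, -0.40 for Il11 and -0.24 for Clcf1. Il6 was not well above background on any of the 6 sham arrays; its measured values differed by 1.56 (adjusted p = 0.441), and no fold is given. In order of mean log2 level, Il33 ran from wild-type TAC through transgenic TAC and transgenic sham to wild-type sham, and of the neighbours in that order none differed by a difference that passed the test.

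Among 13 other ligands and receptors of the IL-6 family, 11 were tested; in banded wild-type hearts 0 rose and 3 fell, where 8.86% of all genes were called higher and 12.6% lower, and the median log2 difference was -0.25, against -0.12 over all genes. In transgenic hearts 0 passed, with a median of 0.01. Lifr, the receptor chain that pairs with gp130 for LIF and cardiotrophin-1, fell where Osmr rose. It read 153, 153 and 116% in wild-type hearts after TAC, against 333, 305 and 278% in wild-type hearts after sham. All banded arrays were below all sham arrays, with a log2 difference of -1.13 ± 0.15 (limma adjusted p = 0.00165). Of its 2 dimmer probes, one fell by 0.77 on the log2 scale (adjusted p = 0.0355 over all probes) and the other gave -0.41 (adjusted p = 0.298). In transgenic hearts Lifr read 170, 200 and 207% after TAC, against 178, 214 and 185% after sham. Its interaction was 1.12 ± 0.21 (adjusted p = 0.0205), lost without wild-type sham replicate 1 or 3 (adjusted p up to 0.0630). Ctf1, which encodes cardiotrophin-1, a gp130 ligand that promotes cardiomyocyte growth, fell in wild-type hearts by 0.82 on the log2 scale (adjusted p = 0.0138), and Il27, a ligand subunit that also uses gp130, fell by 0.51 (adjusted p = 0.0123). Without wild-type TAC replicate 3 both calls were lost, at adjusted p up to 0.0573 for Ctf1 and 0.0505 for Il27; that of Ctf1 was also lost without wild-type sham replicate 1. Osm, which encodes oncostatin M, the ligand of the Osmr product, differed by 0.03 (adjusted p = 0.971), and Il6ra, the IL-6 receptor chain, by -0.18 (adjusted p = 0.482).

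**Figure D4:**
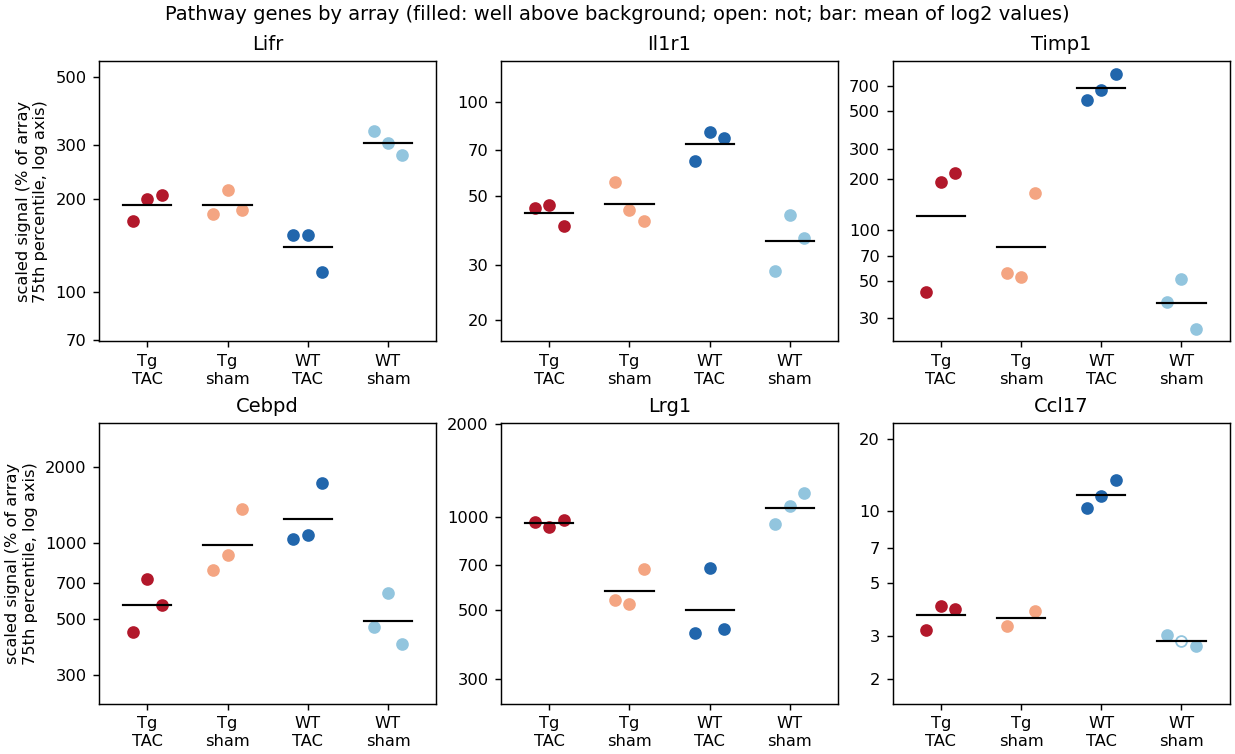
Scaled signal of 6 further pathway genes on the 12 arrays (log axis), by genotype and surgery, with the mean of the log2 values as a bar. The wild-type TAC arrays are the highest 3 for Il1r1, Timp1 and Ccl17 and the lowest 3 for Lifr; transgenic TAC and transgenic sham arrays overlap in the 6 panels except those of Cebpd, where all 3 transgenic TAC arrays are lower, and Lrg1, where all 3 are higher.

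Of 20 genes of the IL-1 family, its receptors and adaptors, 14 were tested in the wild-type comparison, 3 rose and 2 fell, with a median of 0.33, against 21.5% called in either direction and a median of -0.12 over all genes. Il1r1, the signalling IL-1 receptor, read 64.7, 80.3 and 76.3% after TAC, against 28.7, 43.4 and 36.6% after sham, and rose by 1.04 ± 0.17 on the log2 scale (limma adjusted p = 0.00399). Il18bp, the decoy that binds IL-18, rose by 0.80 (adjusted p = 0.0054), and the kinase gene Irak4 by 1.04 at its brightest probe (adjusted p = 0.0288), with 0.55 at its other probe (adjusted p = 0.207 over all probes). The brightest probe of Irak2, a kinase that acts below MyD88, fell by 0.74 (adjusted p = 0.00303), while its other probe gave 0.60 (adjusted p = 0.254), so the direction of Irak2 rests on 1 probe. Traf6, the ubiquitin ligase downstream of those kinases, fell by 0.65 (adjusted p = 0.0118), but with normexp background correction its difference was -0.03 (adjusted p = 0.959). Il1rap, the co-receptor that ST2 needs, differed by 0.39 (adjusted p = 0.632) and Myd88 by 0.30 (adjusted p = 0.193). The interaction passed for Il1r1 (-1.13, adjusted p = 0.0298) and for the brightest Irak2 probe (0.93, adjusted p = 0.0184). At the other Irak2 probe it had the opposite sign, -0.95 (adjusted p = 0.252 over all probes). The Irak4 call was lost without any 1 of 5 wild-type arrays, all but wild-type TAC replicate 1, up to an adjusted p of 0.0915. The Irak2 interaction was lost without transgenic TAC replicate 1 or wild-type sham replicate 3 (adjusted p up to 0.0539), and that of Il1r1 in 6 of 12 cases (up to 0.0728).

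Below the receptors, the JAK and STAT genes and their inhibitors showed 1 rise and 3 falls among 14 tested in banded wild-type hearts, with a median of 0.03; over all genes 21.5% were called, with a median of -0.12. Socs1, a feedback inhibitor of JAK kinases, rose by 0.78 ± 0.16 on the log2 scale (limma adjusted p = 0.00779). Stat5b fell by 0.53 (adjusted p = 0.00738), Cish, a STAT5 target that inhibits the same receptors, fell by 0.73 (adjusted p = 0.00978), and Pias1, an inhibitor of STAT signalling, fell by 0.42 at its brightest probe (adjusted p = 0.0144; 0.0670 without wild-type sham replicate 1). The 2 other Pias1 probes gave -0.30 and -0.26 and did not pass (adjusted p = 0.186 and 0.224 over all probes), and median scaling ended the call (adjusted p = 0.0898). Stat3 itself differed by 0.20 ± 0.27 (adjusted p = 0.658), and Jak1, Jak2 and Tyk2 by -0.22, 0.03 and 0.01. The interaction passed for Stat5b (0.57, adjusted p = 0.0489), a call lost whichever of the 12 arrays was left out (adjusted p from 0.0528 to 0.125).

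Among 25 tested genes of a list of 28 known to respond to STAT3 or gp130, 8 rose and 1 fell in wild-type hearts after TAC, where 8.86% of all genes were called higher and 12.6% lower. The list median was 0.15, against -0.12 over all genes. Timp1, the inhibitor of matrix metalloproteinases, read 579, 663 and 830% after TAC, against 37.4, 51.1 and 26.1% after sham, a log2 difference of 4.21 ± 0.63 (limma adjusted p = 0.00269). Fgl2 rose by 2.08, Hif1a by 1.19, Myc by 1.91 and Cebpd by 1.34 on the log2 scale (adjusted p from 0.00253 to 0.0114). Serpina3n, an acute-phase protease inhibitor, rose by 2.13 (adjusted p = 0.0220), Tnfrsf12a by 1.28 (adjusted p = 0.0134) and Bcl3 by 1.08 (adjusted p = 0.0432). The Serpina3n call was lost without wild-type sham replicate 1 or 3 or wild-type TAC replicate 2 or 3 (adjusted p up to 0.0835), that of Tnfrsf12a without wild-type sham replicate 3 or wild-type TAC replicate 3 (up to 0.0569), and that of Bcl3 in 8 of 12 cases (up to 0.142). Lrg1 went the other way, at 420, 682 and 433% after TAC, against 947, 1084 and 1194% after sham (log2 difference -1.10 ± 0.19, adjusted p = 0.00469). In transgenic hearts Lrg1 read 964, 929 and 976% after TAC, against 538, 523 and 677% after sham, without overlap and not called. Pim1 (0.15), Junb (0.54) and Bcl2l1 (-0.35), further STAT3 targets, did not pass. The difference between the responses passed for 6 of the 25, where 7.29% of all genes were called. It was higher for Lrg1 (1.83, adjusted p = 0.0137) and lower for Timp1 (-3.60, adjusted p = 0.0418), Fgl2 (-2.21, adjusted p = 0.0243), Cebpd (-2.14, adjusted p = 0.0235), Myc (-1.93, adjusted p = 0.0489) and Hif1a (-1.20, adjusted p = 0.0265). That of Lrg1 was kept whichever array was left out, whereas those of Fgl2 and Cebpd were lost in 4 of 12 cases each, that of Hif1a in 7, that of Timp1 in 9 and that of Myc in 11, at adjusted p up to 0.113. These values compare responses, not levels. Between transgenic and wild-type banded hearts 1 of the 25 was called, Lrg1, which was higher, where 4.15% of all genes were called. The mean log2 level of Myc was -1.86 in transgenic and -1.62 in wild-type hearts after TAC, and -1.84 and -3.53 after sham. That of Cebpd was 2.51 and 3.64 after TAC, and 3.30 and 2.30 after sham. That of Timp1 was 0.27 and 2.77 after TAC, and -0.35 and -1.44 after sham.

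The type 2 immune genes that IL-33 can induce were mostly dim: 5 of 12, Il5, Il9, Il13, Areg and Arg1, failed the filter, and of the 7 tested 1 rose and 1 fell in banded wild-type hearts. Over all genes tested, 8.86% were called higher and 12.6% lower in that comparison. Ccl17, a chemokine for T helper cells, read 10.3, 11.6 and 13.5% after TAC, against 3.05, 2.86 and 2.73% after sham, with a log2 difference of 2.03 ± 0.14 (limma adjusted p = 0.000400). It read 3.19, 4.01 and 3.90% in transgenic hearts after TAC, and 3.32 and 3.84% on the 2 transgenic sham arrays where its spot was not marked as an outlier. Ccl17 was lower in transgenic than in wild-type banded hearts by -1.67 ± 0.14 (adjusted p = 0.00105), and its interaction was -1.99 ± 0.21 (adjusted p = 0.0124). The 3 Ccl17 calls were kept whichever array was left out, but each was lost when the outlier spot was kept (adjusted p = 0.183, 0.356 and 0.150, with the interaction at -3.51), in the deposited table, which holds that spot, and with normexp background correction (2.03 became 1.19, adjusted p = 0.356; -1.67 became -0.82, adjusted p = 0.913; -1.99 became -1.58, adjusted p = 0.622). Retnla, a marker of alternatively activated macrophages, moved opposite to Ccl17: it ranged over 3.40 to 16.8% after TAC, against 107 to 161% after sham in wild-type hearts (log2 difference -3.78 ± 0.79, adjusted p = 0.00944). Retnla was higher in transgenic than in wild-type banded hearts by 3.39 (adjusted p = 0.0452), with an interaction of 4.57 (adjusted p = 0.0410); each of these 2 calls was lost in 10 of 12 cases when 1 array was left out (adjusted p up to 0.157 and 0.0997), and the values became 1.93 and 2.83 with normexp.

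**Figure D5:**
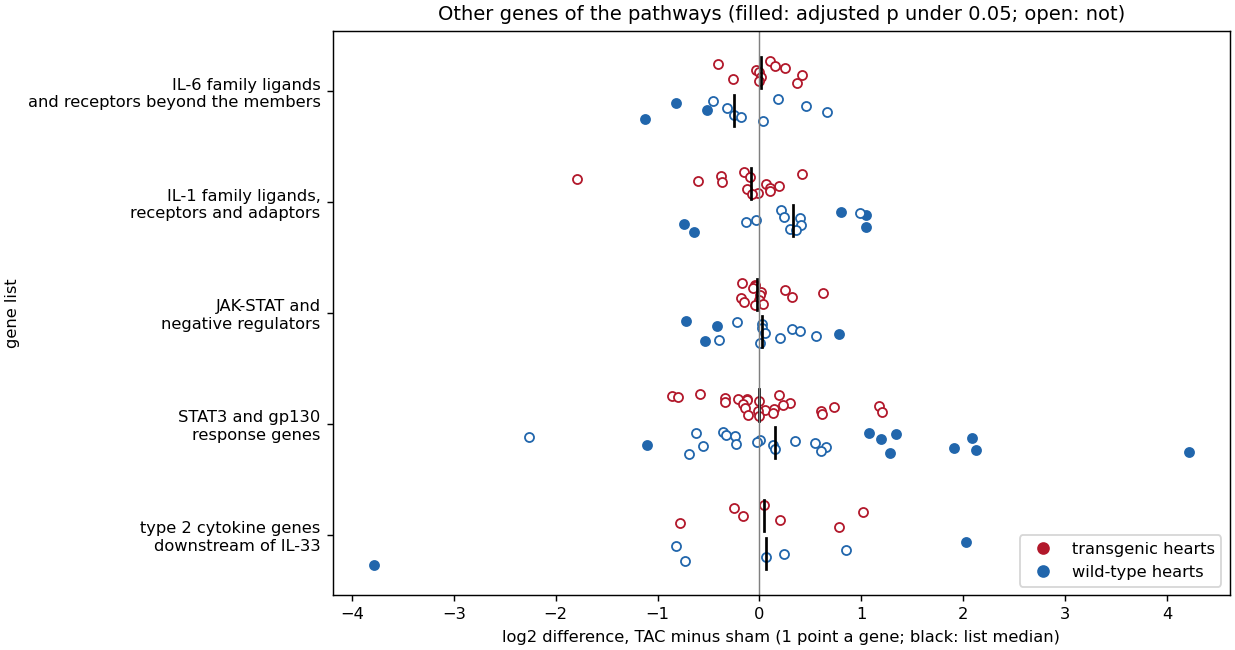
Log2 difference of TAC minus sham for the tested genes of the 5 pathway lists (1 point a gene, with the list median in black), in transgenic (red, upper) and wild-type (blue, lower) hearts; filled points passed the test. The passing genes, all in wild-type hearts, run from -3.78 for Retnla to 4.21 for Timp1 and lie on both sides of 0 in each list but that of the IL-6 family, where the 3 are lower.

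None of the 71 tested genes of these 5 lists was called in transgenic hearts after TAC against sham. In wild-type hearts 23 of them, 32.4%, were called, against 21.5% of all genes, and 1 of these calls, that of Ccl17 (1.98, adjusted p = 0.0495), was kept with slide as a fixed block, a setting under which 2.15% of all genes were called. With slide as a random block, under which 21.7% of all genes were called, all 23 were kept. With normexp background correction, under which 5.95% of all genes were called, 12 of the 23 were kept; Ctf1, Il27, Irak4, Traf6, Stat5b, Socs1, Pias1, Bcl3, Cebpd, Tnfrsf12a and Ccl17 were lost. Between transgenic and wild-type banded hearts 5 of the 71 list genes (7.04%) were called, against 4.15% of all genes. Besides Retnla and Ccl17 they were Il1r1, which was lower, and Lrg1 and the brightest Irak2 probe, which were higher. When 1 array was left out, the call of Il1r1 was lost in 10 of 12 cases, that of Lrg1 in 7 and that of Irak2 in 4. The interaction was called for 12 (16.9%), against 7.29% of all genes. None of these calls, of the banded comparison or the interaction, was kept with normexp or with slide as a fixed block. Under these 2 settings 0.178% and 0.0869% of all genes were called between transgenic and wild-type banded hearts, and 0% had a called interaction. With slide as a random block, 3 of the 5 and 10 of the 12 were kept.

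The genes whose log2 levels ran most like those of an axis gene over the 12 arrays were sought among 15965 named genes by Pearson correlation, as a description in which all points share the arrays and groups. For Il33 they were Oas1c (r = 0.971), Apobec1 (r = 0.961) and Tlr13 (r = 0.961). For Osmr they were Bmp2k (r = 0.969), Itch (r = 0.961) and Ugcg (r = 0.955). For Socs3 they were Nup50 (r = 0.898), Rbp7 (r = 0.898) and Pigq (r = 0.883), and for Il6st they were Telo2, Cyb5r1 and Eprs (r = 0.914, 0.914 and 0.913). For Il11 they were Hrob (r = 0.978), Nlrp1c-ps (r = 0.973) and Tas2r118 (r = 0.969), for Clcf1 they were Morn3 (r = 0.908), Olfr577 (r = 0.904) and Tmsb15b1 (r = 0.898), and for Il1rl1 they were Esrp2 (r = 0.912), Plcb1 (r = 0.887) and Il17a (r = 0.885). Il6, which was well above background on 3 of the 12 arrays, ran most like Tpbg (r = 0.971), Ubtd2 (r = 0.944) and Srsf9 (r = 0.941).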

How the data were processed

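Labelled RNA of 12 left ventricle samples was read on single-colour Agilent arrays. The deposited array files hold intensity values and flags per spot, and the software was Feature Extraction 10.7.3.1, per the file headers; the processed signal is already background-subtracted. The deposited value table holds log2 values centred on each probe's median, per its comparison with the scanner signals (differences between arrays correlated at r = 1 over probes); RMA is named, with no role, in the submitters' processing notes.

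Spots marked as outliers and control spots were left out, replicate spots averaged, and processed signals were divided by their array's 75th percentile before taking log2. A RefSeq gene table matched the transcript accession of 26424 of 39429 probes to a symbol; 13005 had none. A probe needed to be well above background on 3 or more arrays (30358 were), the brightest probe stood for its gene, and 25321 genes were fitted with limma 3.58.1 in R 4.3.3, 1 mean per group over all 12 arrays (8 residual degrees of freedom). Adjusted p-values are Benjamini-Hochberg over all genes tested, two-sided, at 0.05. The fit was tested on simulated data. Alternatives were normexp, quantile and median scaling, the deposited table, other filters, single probes, array weights, slide blocks, a replicate block and leaving out each array. No 2 arrays held identical values. Same-numbered arrays did not deviate together in all pairs (correlations of -0.388 to 0.22), so the numbers were not taken as pairs.

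The 9 genes and the lists were chosen with earlier results of these data known; some list genes are not reported here and are in none of the list counts. By rule, the text names all 9 genes, up to 4 genes of each pathway list per comparison by smallest p with any others whose count is described, and the 3 genes most like each axis gene. A time label gives 0 for sham samples where the protocol gives day 21, which was used.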

Additional observations from a re-analysis of the deposited data

How the results depend on the processing

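In banded against sham wild-type hearts 3 axis genes were called, with 21.5% of all genes. The count became 1 with normexp background correction (Il33, with 5.95% of all genes called). It was 1 among probes well above background on all 12 arrays (Osmr, of 3 axis genes left, with 42.1% of all genes called). With slide as a fixed block it was 0 (2.15% of all genes). It was 1 to 3 when 1 array was left out. Without wild-type sham replicate 3 (12.9% of all genes called) or wild-type TAC replicate 3 (11.2%) it was 1, Il33. Il6 passed the filter only through the wild-type TAC arrays, which bears on each count that holds it. After TAC, transgenic against wild type, the count of 0 (4.15% of all genes called) became 1 with quantile normalization (Il6, with 3.5% of all genes). It was 1 on the probes above background on all 12 arrays (Osmr, with 21.2% of all genes) and 2 with array weights (Il6, Osmr, with 12.2%). It was 0 to 1 without 1 array. The interaction count of 0 (7.29% of all genes called) became 1 with quantile normalization (Il6, with 3.56% of all genes) and 1 with array weights (Il33, with 9.57%). It was 0 to 1 without 1 array. The cause was not tested. The other 2 counts stayed at 0 under all alternatives run. With the replicate block, and also with slide as a random block, the counts were 3, 0, 0, 0 and 0, with the same 3 genes called. Over 40 axis results and 967 alternatives, 0 turned a called value round, and 11 ended and 9 gave a call; for 40 calls of pathway genes and 936 alternatives these were 0 turned and 244 ended. Background limits Il6, Lif and 2 Il1rl1 probes.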
